A study of Homo sapiens with 12 samples.

Results

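OPM-1 is a human multiple myeloma cell line, and the transcriptome described here is that of OPM-1 cells given only the vehicle DMSO for 48 h. Its members are the 3 DMSO samples (DMSO replicates 1, 2 and 3) of a series of 12, all others being left out of the levels, ranks and spreads below. The other 9 samples are the same cells treated for 48 h with lenalidomide (LEN, 0.1 µM), with the RUNX inhibitor AI-10-104 (1 µM) or with the combination, 3 samples each. Every sample is this 1 line, so the values describe OPM-1 and not myeloma in general. The study calls the replicates biological. A single condition holds no contrast to test, so levels are given with their spread, and a value after ± is the SD over the 3 samples.

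Multiple myeloma is a cancer of plasma cells, the end stage of the B cell lineage that secretes antibody. On the way from B cell to plasma cell, the factors that hold B cell identity, among them PAX5, are shut off, and IRF4, PRDM1 (Blimp-1) and XBP1 install a program of high secretory capacity. Myeloma cells keep much of this program and add proliferation, usually through a D-type cyclin and often through MYC or a gene moved next to an immunoglobulin locus.

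Polyadenylated RNA was sequenced. The authors deposited RPKM, read numbers scaled by gene length and by the total counted on genes. Levels of different genes can be set side by side only as far as the deposited gene lengths hold. Other lengths moved many values and turned some orders, as given below. The 3 samples held 21297486 to 31386210 reads on genes, and 3 reads, taken here as the floor of detection, are worth 0.0568 RPKM for a gene of 2478 bases in the shallowest sample. Floors account for counting error alone, because amplified reads lacking molecular identifiers can stem from the same molecule.

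A minority of the annotated genes was transcribed at an appreciable level. Of 38478 genes in the table, 9773 (25.4%) reached 1 RPKM in all 3 samples and 17453 (45.4%) were listed at 0 in all 3, while 22663 had no more than 3 reads in any sample. Among the 19168 genes that RefSeq calls protein coding, 8903 (46.4%) reached 1 RPKM and 5003 (26.1%) were listed at 0. The median of the genes at 1 RPKM or more was 11.0 RPKM. The level classes were steep at the top, with 4841 genes between 1 and 10 RPKM, 4552 between 10 and 100, 590 between 100 and 1000, and 37 at 1000 or more. Those 37 genes held 22.6% of all RPKM. The 10 highest genes held 10.7% ± 0.582 (SD, n = 3) of the RPKM, the 100 highest 33.0% ± 0.363 and the 1000 highest 65.4% ± 0.0823. RPKM weights short transcripts, and the 100 genes with the most reads took 17.9% ± 0.203 of the reads.

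**Figure D1:**
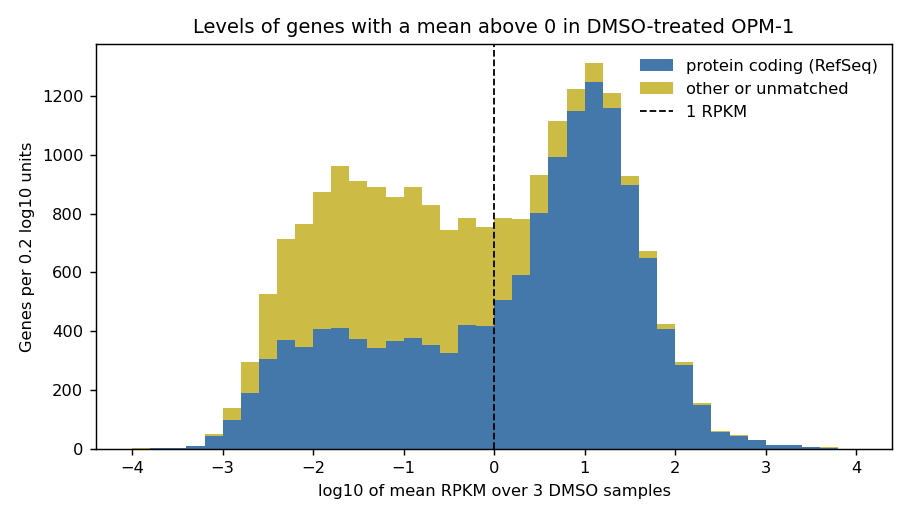
Number of genes in each step of mean RPKM over the 3 DMSO samples (x axis, log10 of RPKM; y axis, genes per bin), for protein-coding genes in blue and all others in yellow, with a dashed line at 1 RPKM; genes listed at 0 are not drawn. Protein-coding genes form a broad low group under 1 RPKM and a higher one around 10 RPKM, and the other genes lie mostly under 1 RPKM.

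Transcripts of the mitochondrial genome and of the ribosome took the top of the ranking. All 13 protein genes of mitochondrial DNA were among the 30 highest genes, and together they made 10.8% ± 0.825 (SD, n = 3) of the RPKM but 3.78% ± 0.296 of the reads, being short genes. The highest gene of all was ND4, a subunit of respiratory complex I, at 5231, 6089 and 6226 RPKM in replicates 1 to 3. COX3 of complex IV followed with 4905, 5409 and 5330.5 RPKM, and ATP6 of the ATP synthase with 4370.2, 5151 and 5251 RPKM. In each of these genes replicate 1 lay under the other two, and that held for 13 of 13 mitochondrial genes. Ribosomal protein genes gave 11.5% ± 0.342 of the RPKM and 37 of the 100 highest genes. On the deposited lengths they were led by RPL37A (2728 ± 97.6 RPKM) and RPS6 (2509 ± 55.2 RPKM). With the exon length of GENCODE instead, a scale chosen after the data were seen, RPS12 had 1308, RPS6 772 and RPL37A 185 RPKM. The median ribosomal protein gene stood at 415 RPKM.

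The first nuclear messenger RNA in the ranking was that of JCHAIN, the joining chain that links antibody units into polymeric IgM and IgA. JCHAIN (chr4:70655541-70681817, minus strand of GRCh38) ranked 7 at 3141, 3391 and 3422 RPKM, or 112830 to 158615 reads a sample, which was 0.514% ± 0.0238 (SD, n = 3) of all reads on genes. Its lowest sample was above the highest of GAPDH, the glycolytic enzyme, at 2474, 2402 and 2292 RPKM. FTL, the ferritin light chain that stores iron, reached 2043 ± 121 RPKM, ACTB, cytoskeletal actin, 1777 ± 91.2 RPKM, and the constitutive chaperone HSPA8 1717 ± 122 RPKM. The 25 highest genes were thus 11 mitochondrial genes, 6 of the ribosome, JCHAIN, these 4, and 3 entries for short RNAs.

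**Figure D2:**
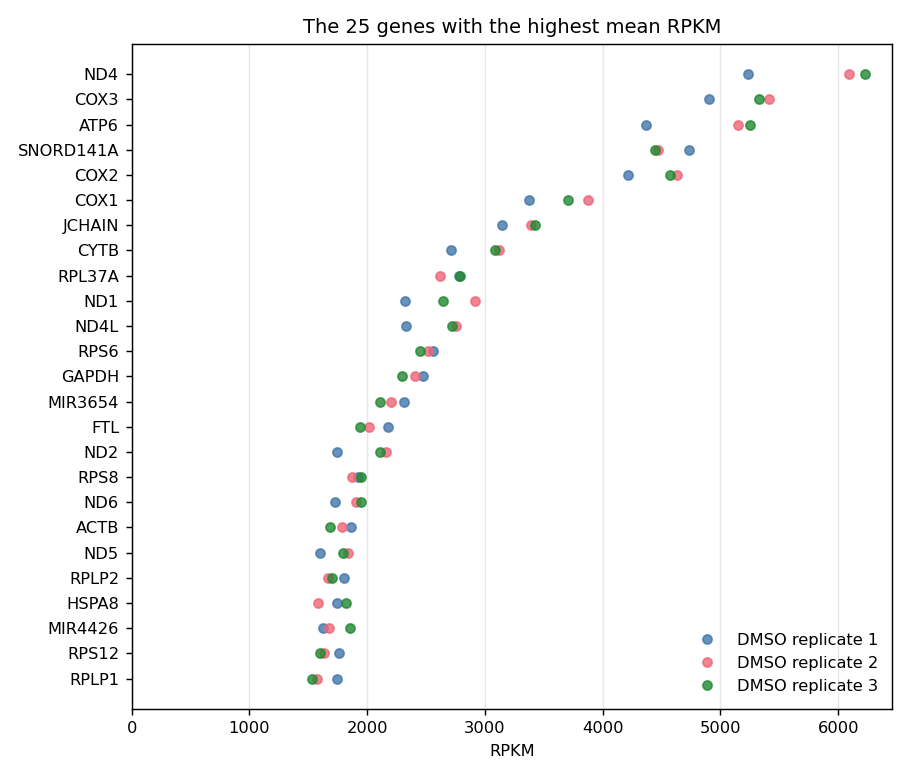
RPKM (x axis, linear from 0) of the 25 genes with the highest mean (y axis), 1 point for each DMSO replicate. Mitochondrial genes fill the top, with replicate 1 to the left of the other replicates, and JCHAIN stands in position 7 between 3141 and 3422 RPKM.

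The 3 short entries in that group need reading with the sequences beside them. SNORD141A, a small nucleolar RNA of 105 bases, was listed at 4730.3, 4469 and 4445 RPKM, MIR3654 at 2311, 2203 and 2110.4 and MIR4426 at 1626, 1672 and 1851. All 105 bases of SNORD141A lie within exons of EEF1A1P5, a processed pseudogene of the elongation factor EEF1A1, all 63 bases of MIR4426 within RPS27AP5, a processed pseudogene of RPS27A, and all 56 of MIR3654 within another processed pseudogene. MIR3654 is at chr7:133034860-133034915 on the minus strand and MIR4426 at chr1:192716328-192716390 on the plus strand (GRCh38.p14). The mature RNAs, from RefSeq, are shown because the levels listed under these names can be read only against what the counted stretch is, with the seed (bases 2 to 8) in capitals and no seed in common:
hsa-miR-3654: gACUGGACaagcugaggaa
hsa-miR-4426: gAAGAUGGacguacuuu
Mature RNAs of 19 and 17 bases carry no poly(A) tail, and the values are levels of reads on these stretches of the genome and not of the microRNAs. Which transcripts the reads came from was not tested.

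The transcription factors of the plasma cell were present and graded over a wide range. XBP1 (chr22:28794555-28800597), which drives the expansion of the endoplasmic reticulum, had 512, 516 and 499.6 RPKM and rank 82. IRF4 (chr6:391739-411443), on which myeloma cells depend, had 207, 222 and 198 RPKM, and POU2AF1, the coactivator of octamer-binding factors, had 141, 135 and 129.7. PRDM1, the repressor that ends the B cell program, was lower at 33.0, 35.3 and 32.0 RPKM. The coefficient of variation of these genes was 1.68% to 5.73%, and the replicates of XBP1, IRF4, POU2AF1 and PRDM1 did not overlap.
Of 16 genes listed as plasma cell factors, 14 (87.5%) reached 1 RPKM in every sample against 46.4% of all protein-coding genes. BHLHA15 (MIST1), a factor of secretory cells, had 20.2 ± 1.28 RPKM, CREB3L2 17.6 ± 1.05 RPKM, and the elongation factor ELL2, which favours the secreted form of antibody RNA, 14.1 ± 0.541 RPKM. FAM46C, a poly(A) polymerase often mutated in myeloma, had 74.5 ± 0.855 RPKM. The exceptions were ZBTB20 at 0.0709, 0.0584 and 0.0862 RPKM and DERL3, listed at 0 in all samples.

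As markers of the cell type, 9 of 10 plasma cell genes had at least 10 RPKM in every sample. TNFRSF17 (BCMA), the receptor that sustains plasma cells, had 180.0, 180.3 and 175 RPKM, and SDC1 (CD138), the proteoglycan used to recognise them, 155, 144 and 140.3. MZB1, a chaperone of antibody assembly, had 222, 212 and 199 RPKM. CD38 (29.4 ± 0.882 RPKM) and SLAMF7 (19.3 ± 1.21 RPKM) were lower, with no sample near SDC1. FCRL5 was the marker missing, with 0.0354, 0.0490 and 0.0174 RPKM from 2 to 8 reads. The label of a myeloma line thus matched these markers.

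**Figure D3:**
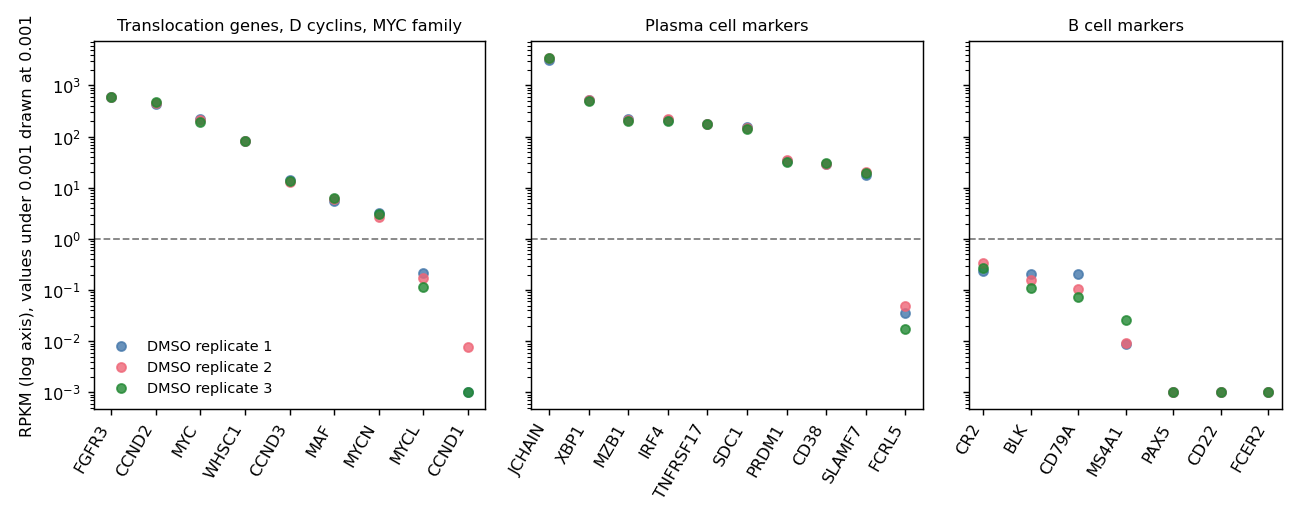
RPKM in each DMSO replicate (y axis, log scale, values under 0.001 drawn at 0.001) of translocation genes, D cyclins and the MYC family, of plasma cell markers and of B cell markers, with a dashed line at 1 RPKM. Of the 10 plasma cell markers 9 lie above the line and FCRL5 below it, the 7 B cell markers drawn lie below it, and the points of the 3 replicates coincide for genes above it.

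The B cell side of the lineage was close to silent. None of the 8 B cell markers reached 1 RPKM, and their summed level was 0.477 to 0.650 RPKM a sample, against 4497 to 4750 RPKM for the 10 plasma cell markers. MS4A1 (CD20), a surface protein of B cells, gave 1, 1 and 2 reads. PAX5, CD22, FCER2 (CD23), CD40 and TCL1A were listed at 0 in all 3 samples. Such zeros alone cannot be taken as absence, since RPS18 and EIF4A1, which nearly every cell uses, were listed at 0 too.
In the wider B cell program 4 of 20 genes (20%) passed 1 RPKM, against 46.4% of all protein-coding genes. CD79B, the signalling chain of the B cell receptor, had 6.12 ± 0.152 RPKM, whereas its partner CD79A had 0.203, 0.105 and 0.0746 RPKM from 2 to 8 reads. CIITA, the master regulator of MHC class II, had 2.20 ± 0.0626 RPKM, BACH2, a repressor that delays plasma cell formation, 2.12 ± 0.0859 RPKM, and SPIB 1.34 ± 0.160 RPKM. BCL6, the factor of germinal centres, had 0.0709, 0.0563 and 0.0553 RPKM and EBF1 0.0202, 0.0217 and 0.0139.

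Immunoglobulin transcripts cannot be described from these values, since the table used here holds 5 immunoglobulin symbols, 3 of the IGLL family and 2 orphan IGHV genes, and 0 constant region symbols. IGLL5 was listed at 92.7, 90.5 and 86.7 RPKM. Of its 1339 exon bases in GENCODE, 34.4% (460 bases) are shared with the lambda constant gene IGLC1 and 9.11% (122 bases) with IGLJ1, so that reads of a lambda light chain and of IGLL5 cannot be told apart there. IGLL1, the surrogate light chain of B cell precursors, had 0.0557, 0.0289 and 0.0821 RPKM.

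Genes of the secretory pathway were expressed almost without gap. The list holds 73 genes for entry into the endoplasmic reticulum, folding, glycosylation, vesicle transport and the unfolded protein response. Of them 71 (97.3%) reached 1 RPKM, against 46.4% of all protein-coding genes. Of the 73, 65 reached 10 and 26 reached 100, with a median of 71.5 RPKM. Their summed share was 2.12% ± 0.00402 (SD, n = 3) of the RPKM. The highest on the deposited lengths was CALR, the calcium-binding chaperone calreticulin, at 588 ± 27.1 RPKM. Parts of the translocon and its neighbours followed, with TRAM1 at 554 ± 21.6 RPKM, SEC61G at 503 ± 37.8 RPKM, SEC61B at 299.9 ± 6.10 RPKM and SEC61A1 at 193 ± 7.26 RPKM. With the exon length of GENCODE instead, a scale chosen after the data were seen, TRAM1 had 525 and CALR 401 RPKM. Other orders in this list turned as well, such as HSPA5 at 108 over HSP90B1 at 97.7 RPKM.
The chaperones HSP90B1 (GRP94) and HSPA5 (BiP) had 447 ± 22.6 RPKM and 178 ± 2.13 RPKM, and the disulfide isomerase P4HB had 304 ± 22.4 RPKM. The oligosaccharyltransferase subunits RPN2, DAD1 and RPN1 had 238 ± 6.48 RPKM, 211 ± 0.889 RPKM and 184.9 ± 1.30 RPKM, and OSTC, DDOST, STT3A and STT3B went from 142 down to 57.7 RPKM. The unfolded protein response was graded, with the stress factor ATF4 at 161 ± 7.80 RPKM, the stress-induced HERPUD1 at 102 ± 3.66 RPKM and the cochaperone SDF2L1 at 72.1 ± 0.765 RPKM. Of the sensors, ATF6 had 19.4 ± 0.184 RPKM, EIF2AK3 (PERK) 15.7 ± 0.314 RPKM and ERN1 (IRE1), which splices XBP1, 6.98 ± 0.151 RPKM, and DDIT3 (CHOP), the factor of terminal stress, had 6.10 ± 0.383 RPKM. TXNDC5, a disulfide isomerase, was low and uneven at 2.89, 2.86 and 1.77 RPKM, replicate 3 being lowest, and ERO1B was at 0.425, 0.316 and 0.570. DERL3 was listed at 0, while its relative DERL2, also of the export route for misfolded proteins, had 6.45, 6.51 and 6.41 RPKM.

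**Figure D4:**
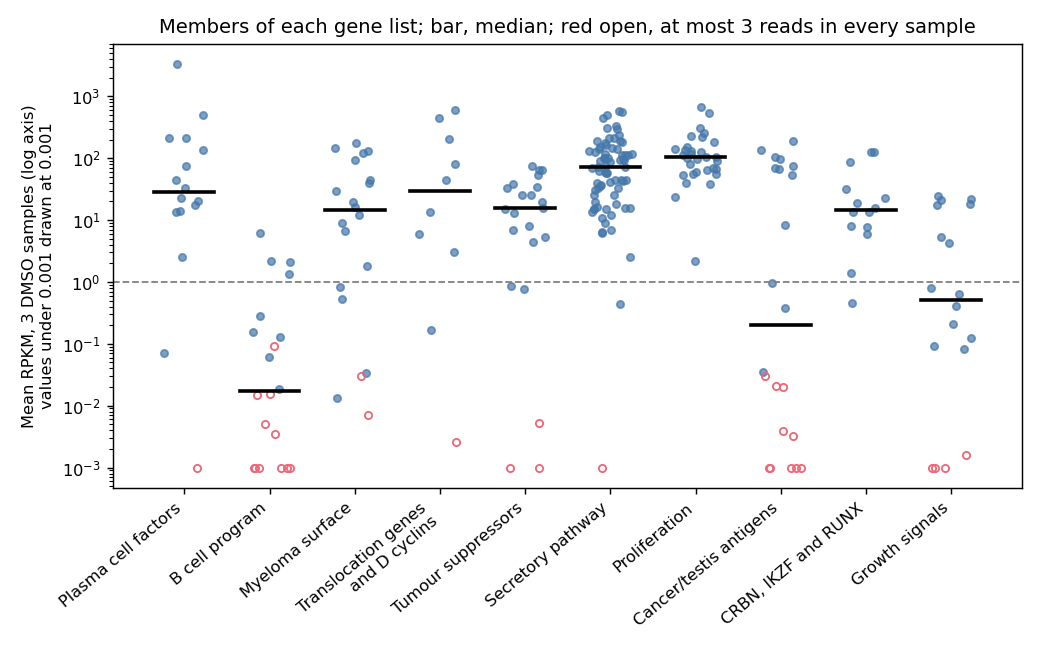
Mean RPKM over the 3 DMSO samples (y axis, log scale, values under 0.001 drawn at 0.001) of the members of 10 gene lists, 1 point a gene, with a bar at each list's median, a dashed line at 1 RPKM and red open points for genes of at most 3 reads in every sample. Secretory pathway and proliferation genes have medians of 71.5 and 103 RPKM, and the B cell program and cancer/testis antigens have medians under 1 RPKM.

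FGFR3 and CCND2 led the genes linked to myeloma translocations and the D cyclins. FGFR3 (chr4:1793293-1808872), a receptor tyrosine kinase moved next to an immunoglobulin enhancer by the translocation between chromosomes 4 and 14, had 602, 607 and 592 RPKM, rank 69 and 0.268% ± 0.00336 (SD, n = 3) of all reads. WHSC1 (now NSD2, chr4:1871393-1982207), the histone methyltransferase at the same breakpoint region, had 83.7, 81.8 and 80.4 RPKM. Their coefficients of variation were 1.26% and 2.02%, so both levels were steady between replicates.
Among the cyclins, CCND2 had 439, 451 and 465 RPKM, CCND3 14.3, 13.2 and 13.6, and CCND1 0, 0.00772 and 0 from a single read in all. MAF, a target of translocations that can raise CCND2, was at 5.42, 5.98 and 6.27 RPKM, and at 23.9, 26.3 and 27.6 with the exon length of GENCODE in place of the deposited length, a scale chosen after the data were seen. ITGB7, an integrin chain known as a MAF target, had 796, 758 and 732 RPKM and rank 52. The order CCND2, CCND3, CCND1 was the same in each sample, with no overlap.
MYC had 219, 209 and 195 RPKM, or 0.0492% ± 0.00282 of the reads. MYCN reached 3.26, 2.70 and 3.14 and MYCL 0.212, 0.174 and 0.114 RPKM, so that MYC was the leading member of its family in all 3 samples. Whether any of these levels goes with a rearrangement was not tested.

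Tumour suppressors were mostly transcribed, with 17 of 22 (77.3%) at 1 RPKM or more, against 46.4% of all protein-coding genes. Their median was 15.5 RPKM. RB1 had 25.5 ± 1.19 RPKM, and TRAF3 and CYLD, brakes on NF-κB, had 15.2 ± 0.496 RPKM and 4.46 ± 0.227 RPKM. CDKN2A, which encodes p16 and p14ARF, had 53.5 ± 2.07 RPKM, and BIRC3, an NF-κB target, 65.5 ± 6.71 RPKM. CDKN1A (p21), a cell cycle inhibitor, was low at 0.785, 0.653 and 0.837 RPKM.
CDKN2C (p18, chr1:50960745-50974634), an inhibitor of CDK4 and CDK6 that is often lost in myeloma, and its neighbour FAF1 gave no read in these samples, nor in any of the 12 of the series. RPS18 and EIF4A1, which nearly every cell uses, were likewise at 0 in all 12, so such a zero cannot be taken as absence. The read floor of the shallowest sample allows up to 0.0568 RPKM for CDKN2C and 0.0508 for FAF1. They sit in a run of 7 consecutive protein-coding genes at 0, AGBL4, BEND5, ELAVL4, DMRTA2, FAF1, CDKN2C and C1orf185, within chr1:48522511-51152282 by RefSeq. On one side SPATA6 had 0.215, 0.253 and 0.222 RPKM and on the other RNF11 had 21.6, 23.3 and 24.4. The run was looked for after the value of CDKN2C had been seen, and 90 runs of at least 7 such genes at 0 exist in the table, the longest of 54 genes. Copy number was not measured in these files.

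Genes of the dividing cell were all on. Of 31 proliferation genes, 31 reached 1 RPKM, against 46.4% of all protein-coding genes. Of the 31, 30 reached 10 and the median was 103 RPKM. The histone variant H2AFZ had 671 ± 23.3 RPKM, HMGB2 538 ± 13.1 RPKM, the replication clamp PCNA 251 ± 11.2 RPKM, the helicase subunit MCM4 225 ± 4.15 RPKM and ribonucleotide reductase RRM2 223 ± 9.47 RPKM. The mitotic genes PLK1, CDC20 and CCNB1 lay at 139 ± 12.2 RPKM, 136 ± 12.2 RPKM and 131 ± 2.81 RPKM, MKI67 at 66.0 ± 2.13 RPKM and TOP2A at 126 ± 2.70 RPKM. CCNE2 (2.21 ± 0.370 RPKM) was well under CCNE1 (23.8 ± 1.48 RPKM), both cyclins of the entry into S phase. CDK6, the kinase partner of D cyclins, had 55.6 ± 2.65 RPKM.
In glycolysis, 18 of 21 genes (85.7%) reached 1 RPKM, against 46.4% of all protein-coding genes. After GAPDH came ENO1 (819 ± 44.2 RPKM), the lactate dehydrogenase LDHB (786 ± 12.1 RPKM), ALDOA (535, 501 and 465 RPKM) and LDHA (411 ± 8.20 RPKM). On exon length LDHB had 515 and ENO1 511 RPKM, so that order holds only on the deposited lengths. Isoform pairs were unequal, with HK2 at 26.4, 25.9 and 25.3 RPKM and HK1 at 0.0706, 0.0400 and 0.0189, and with the glucose transporters SLC2A1 at 13.1, 14.1 and 12.4 and SLC2A3 at 0, 0.00840 and 0. On the deposited lengths the translation factors were led by the nucleolar protein NCL (1273 ± 5.27 RPKM) and EEF2 (1029 ± 56.1 RPKM), and 16 of 18 reached 10 RPKM. On exon length EEF2 had 808 and NCL 388 RPKM, so their order turned.

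Surface genes known in myeloma were present in 14 of 20 cases (70%), against 46.4% of all protein-coding genes. CD48 had 133 ± 3.01 RPKM, BSG 121 ± 5.94 RPKM and the chemokine receptor CXCR4, which holds plasma cells in the marrow, 94.0 ± 1.04 RPKM. CD28, a costimulatory receptor, stood at 43.7, 44.2 and 44.03 RPKM, GPRC5D at 16.8, 17.2 and 15.4 and NCAM1 (CD56) at 12.6, 12.0 and 11.8. The BAFF and APRIL receptors were unequal, since TNFRSF13B (TACI) had 1.69, 1.97 and 1.76 RPKM and TNFRSF13C (BAFF-R) 0.478, 0.744 and 0.352, both far under TNFRSF17. CD27 (0, 0.0295 and 0.0627), KIT (0.0123, 0 and 0.00907) and ICAM1 (0.0393, 0 and 0) were near or at the floor.
Of the genes for growth signals, 7 of 18 (38.9%) reached 1 RPKM, against 46.4% of all protein-coding genes. The IL-6 receptor chains IL6ST and IL6R had 24.4 ± 1.93 RPKM and 17.8 ± 1.02 RPKM, and the ligand IL6 was listed at 0 in every sample. IGF1R and INSR had 4.31 ± 0.0736 RPKM and 21.7 ± 0.509 RPKM, while IGF1 had 0.198, 0.238 and 0.195 RPKM and HGF 0.548, 0.717 and 0.616. DKK1, the Wnt antagonist of myeloma bone disease, had 0.0706, 0.128 and 0.0780 RPKM from 3 to 7 reads. VEGFA, at 18.5 ± 0.924 RPKM, was the ligand above 1 RPKM in this list. Receptors were also low in places, with IL21R at 0.369, 0.333 and 0.509 RPKM and MET, the receptor of HGF, at a single read in all.

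The proteins that the study's drugs act through were transcribed at moderate levels. CRBN, the substrate receptor bound by lenalidomide, had 5.94, 5.65 and 6.09 RPKM, far under its ligase partners DDB1 (131, 126 and 120.0) and RBX1 (124, 126 and 132). The scaffold CUL4A had 31.9, 31.0 and 33.0 and CUL4B 12.8, 13.6 and 14.1. On exon length CRBN had 2.84 and CUL4B 2.44 RPKM, so their order turned. IKZF3 (Aiolos) had 22.9 ± 0.466 RPKM and IKZF1 (Ikaros) 13.3 ± 0.213 RPKM on the deposited lengths. IKZF1 was given 18786 bases for 10921 of exon, and on exon length IKZF1 had 23.1, 22.96 and 22.4 RPKM and IKZF3 22.1, 22.7 and 23.03, with overlapping samples. IKZF2 was the lowest of the family at 0.434, 0.462 and 0.476.
All 3 RUNX genes were expressed, RUNX3 at 19.9, 18.5 and 17.8 RPKM, RUNX2 at 14.8, 15.7 and 15.8 and RUNX1 at 7.85, 8.22 and 7.90, in that order. On exon length RUNX2 had 26.5, 28.2 and 28.2 RPKM and RUNX3 20.7, 19.3 and 18.6, so the order of these paralogs turned, while RUNX1 stayed lowest at 6.20. CBFB, the common partner that AI-10-104 keeps from RUNX proteins, was more abundant than each of them at 79.8, 85.1 and 91.2 RPKM, and stayed so on the exon-length scale at 57.5.

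Cancer/testis antigens, normally kept to germ cells, ranged from among the higher genes to 0. Of 22 genes, 9 (40.9%) reached 1 RPKM, against 46.4% of all protein-coding genes, and 10 had no more than 3 reads in any sample. CTAG2 had 193, 185.2 and 192 RPKM, MAGEA4 137, 135 and 139, MAGEA1 103, 104 and 103 and MAGEC1 101.2, 94.9 and 97.5. MAGEA12, MAGEA6 and MAGEA3, close copies of one another whose reads could be split by the counting, had 70.3 ± 2.37 RPKM, 67.3 ± 3.34 RPKM and 53.1 ± 2.99 RPKM. SSX1 (8.17, 9.25 and 7.94 RPKM), PAGE1 (0.591, 1.09 and 1.21) and PASD1 (0.451, 0.377 and 0.289) lay in between. MAGEC2 gave 1 to 3 reads, CTAG1B, the near copy of CTAG2, 1 read in all, and GAGE1, PRAME, SSX2, XAGE1B and SYCP1 were listed at 0.

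Of the MHC and its partners, 5 of 15 genes (33.3%) reached 1 RPKM, against 46.4% of all protein-coding genes. CD74, the invariant chain, had 34.6, 32.7 and 31.3 RPKM, B2M 25.9, 28.5 and 27.9, HLA-B 14.2, 14.2 and 12.8 and HLA-C 6.54, 6.30 and 5.82. B2M, the light chain shared by all class I molecules, thus stood at rank 2468, far under GAPDH and ACTB. The class II genes were under 1 RPKM, with HLA-DRA at 0.196, 0.239 and 0.211 and HLA-DRB1 at 0.501, 0.606 and 0.440. HLA-DRA was given 10240 bases for 1244 of exon, and on exon length HLA-DRA had 1.61, 1.97 and 1.74 RPKM and HLA-DRB1 1.07, 1.30 and 0.944. By the same scale B2M had 33.9, HLA-B 30.0, HLA-C 27.5 and CD74 14.5 RPKM, so CD74 no longer led. The genes HLA-E, HLA-F, HLA-DPA1, HLA-DMA and HLA-DMB were listed at 0.

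Zeros in the region around these genes cannot be taken as absence, because they include genes that nearly every cell uses. Between HLA-F and RPS18 (chr6:29723434-33276511 by RefSeq), a stretch of the MHC chosen after its zeros had been seen, 100 of 133 protein-coding genes (75.2%) were listed at 0 and 4 reached 1 RPKM, CSNK2B, HLA-B and HLA-C among them. On the rest of chromosome 6, 219 of 862 (25.4%) were listed at 0. Among the zeros were the helicase DDX39B, the chaperone BAG6, the channel protein CLIC1 and the ribosomal protein RPS18, and the tubulin gene TUBB had 6 to 9 reads. The gene length deposited there was a median 4.97 times the exon length in GENCODE, against 0.993 times on the rest of the chromosome. HLA-E was given 19033 bases for 2922 of exon, and TUBB 24937 for 4071.
Across the genome, 23.9% of 17182 protein-coding genes with a length ratio under 1.5 were listed at 0, 37.6% of 1404 between 1.5 and 3, and 59.3% of 369 at 3 or more. RPS9 (9971 bases for 4304 of exon), with 2 to 3 reads, DERL3 (7517 for 3796) and PRAME (7720 for 3806) were among the long ones. A long deposited length was not a feature of every such zero, since EIF4A1, a helicase of translation initiation, was listed at 0 with a ratio under 1.5. Of the exon bases of EIF4A1, 42.1% are shared with a lncRNA gene on the same strand. A further overlap, of 28.2%, is with the readthrough gene SENP3-EIF4A1, which had 2 to 7 reads. What set these zeros was not tested.
Several other ribosomal protein genes were low but not at 0. The lowest after RPS9 were RPL36A at 3.03, 3.94 and 3.77 RPKM, RPL17 at 4.47, 4.27 and 3.23, RPS26 at 6.82, 7.23 and 5.99, RPS10 at 7.24, 5.90 and 7.10 and RPL21 at 9.86, 11.9 and 8.33, against the median of 415 RPKM for the 79 ribosomal protein genes.

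Other cell types left almost no trace. None of the T or NK cell (11 genes), myeloid (11), stromal (9), endothelial (6), epithelial (7), liver (6) or muscle (6) markers reached 1 RPKM. The summed level was 0.428 to 0.531 RPKM for the T or NK markers, 0.123 to 0.491 for the myeloid and 0.571 to 0.667 for the stromal ones, and CD3D, CD8A, MPO, COL1A1, CDH5, EPCAM and AFP were listed at 0. The myeloid sum was highest in replicate 3, where CD14 gave 9 reads and LYZ 7.
Few markers of other cells were above 1 RPKM. HBB, β-globin, had 20.3, 20.2 and 19.7 RPKM and its neighbour HBD, δ-globin, 41.1, 36.4 and 34.1, but HBA1, HBA2, HBG1 and GATA1 were listed at 0. MBP, a myelin gene that also has transcripts in blood cells, had 6.17, 6.25 and 6.09 RPKM. SOX2, a factor of stem cells, had 2.00, 2.08 and 2.06 RPKM, with NANOG and LIN28A at 0 and POU5F1 at 0.0115, 0.00850 and 0.00965.

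Among long non-coding RNAs the hosts of small nucleolar RNAs led on the deposited lengths. SNHG1 had 334 ± 7.10 RPKM, GAS5 328 ± 9.48 RPKM and LRRC75A-AS1 286 ± 1.79 RPKM. MALAT1, a nuclear RNA, ranked 175 with 232, 252 and 268 RPKM, and DANCR stood beside it at 246, 251 and 251. SNHG8, SNHG6, SNHG3, SNHG19 and NORAD followed, from 152 down to 70.4 RPKM. This order depends on the lengths used. The deposited length was 0.281 times the GENCODE exon length for SNHG1, 0.128 times for GAS5 and 0.0840 times for DANCR. For MALAT1 it was 0.631 times. The annotated biotype split was wide, as 7098 lncRNA genes were listed at 0 and 7 reached a mean of 100 RPKM.

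Promoter sequence varied with the level of the gene. Over 11246 protein-coding genes with a single promoter entry in RefSeq (GRCh38.p14, 250 bases before to 50 after the start), the median GC content was 56% for genes listed at 0 and 62% for those above 0 and under 1 RPKM. From 1 RPKM upwards it was 66.3%, 65.7% and 64.3% in the classes 1 to 10, 10 to 100 and 100 or more. The ratio of observed to expected CpG went from a median of 0.334 at 0 RPKM to 0.664, 0.860, 0.893 and 0.914 in the rising classes. TATAAA, searched on both strands, was in 20.8% of promoters of genes at 0, in 3.91% and 3.86% of those between 1 and 100 RPKM and in 11.2% of those at 100 RPKM or more, with 10.4% over all. ATGCAAAT, the octamer bound by POU2F factors, was in 1.71% of all, and TGTGGT, the core letters bound by RUNX proteins, in 11.0% of all, 13.8% of those at 0 and 9.87% of the highest class. A match of letters is a description and not a site.
The bases upstream of the start are shown for JCHAIN, IRF4 and FGFR3, because these abundant genes span the range of promoter types, with the RUNX core letters or TATAAA in capitals where they occur. The 250 bases lie at chr4:70666509-70666758 (minus strand), chr6:391502-391751 (plus) and chr4:1793043-1793292 (plus).
JCHAIN: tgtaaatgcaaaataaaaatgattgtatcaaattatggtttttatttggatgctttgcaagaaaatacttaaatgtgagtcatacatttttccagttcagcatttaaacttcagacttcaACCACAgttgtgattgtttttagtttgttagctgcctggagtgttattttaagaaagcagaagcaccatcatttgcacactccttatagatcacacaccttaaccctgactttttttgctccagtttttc
IRF4: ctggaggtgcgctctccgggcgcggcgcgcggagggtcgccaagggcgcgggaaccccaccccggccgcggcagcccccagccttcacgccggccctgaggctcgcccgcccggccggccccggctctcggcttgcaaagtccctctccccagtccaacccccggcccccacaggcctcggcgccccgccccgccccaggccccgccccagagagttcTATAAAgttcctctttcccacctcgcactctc
FGFR3: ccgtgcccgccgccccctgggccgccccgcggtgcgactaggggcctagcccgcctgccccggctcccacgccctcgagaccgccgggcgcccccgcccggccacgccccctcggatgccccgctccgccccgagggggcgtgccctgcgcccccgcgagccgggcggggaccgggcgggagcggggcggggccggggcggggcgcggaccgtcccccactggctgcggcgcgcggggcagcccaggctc
The JCHAIN promoter, of 34.3% GC over its 300 bases and with no CpG, is unlike the median of its level class, and holds the RUNX core letters on the opposite strand (ACCACA as written). The IRF4 promoter has 74% GC and TATAAA starting 32 bases before the start, and the FGFR3 promoter 86.3% GC and none of the 3 motifs.

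The replicates were close to one another. Over the 10020 genes averaging 1 RPKM or more, the median coefficient of variation (CV, the SD over the mean of the 3 samples) was 4.52%, with a 90th percentile of 10.7%. The CV expected from counting of reads alone had a median of 2.95%. Pearson's r of log2 RPKM over 9773 genes, which are not independent replicates, was 0.996 to 0.998 for the 3 pairs. Of these pairs 1 and 3 had 21 genes apart by over 2-fold, 1 and 2 had 13 and 2 and 3 had 10. The pairs nevertheless differed by more than counting of independent reads gives, with a chi-square per degree of freedom of 2.77 to 6.52. Amplified reads of the same molecule can raise this value, so it does not show how separate the samples are.
The excess over counting grew with depth. Genes of 10 to 100 reads had a median CV of 17.0% where counting gives 19.0%, and genes of 100 to 1000 reads 5.87% against 4.95%. Genes of 1000 to 10000 reads had 3.68% against 2.11%, and genes over 10000 reads 3.20% against 0.813%. The counting value is the expected SD over the mean. A median CV from 3 samples falls under that value even where counting is the only source. They are thus not the same measure, and 17.0% does not mean less spread than counting.

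**Figure D5:**
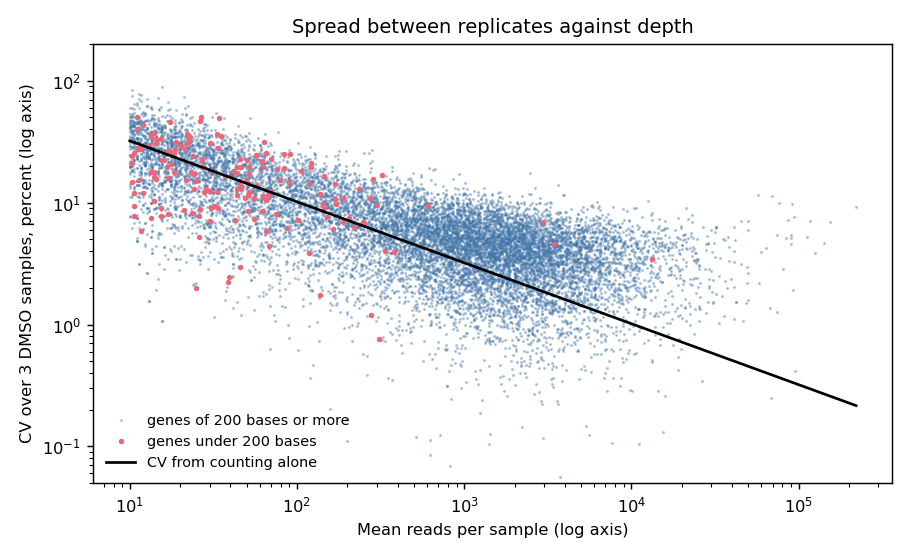
Coefficient of variation over the 3 DMSO samples in percent (y axis, log scale) against mean reads per sample (x axis, log scale), 1 point a gene, with genes under 200 bases in red and a line for the spread that counting alone gives. Points follow the line at low reads and lie above it at high reads, where the median is 3.20% against 0.813% from counting.

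The smallest CVs were those of BIRC5 (survivin, an inhibitor of apoptosis needed in mitosis) at 88.9, 88.9 and 88.8 RPKM, and of CASC3, WDR48, NUP205 and POGK. All were 0.106% or less, the smallest values among the 5179 genes averaging 10 RPKM or more. Counting alone gives a median of 2.11% for genes of 1000 to 10000 reads and 0.813% for genes over 10000. Values so far under counting, picked from so many genes with 3 samples each, do not show these genes to be steadier than others. At the uneven end were SNORD45A, SNORD37, SNORD45B, SNORD23 and SNORA67, short RNAs with CVs of 31.3% to 46.5%, and 19 of the 20 most uneven genes were under 200 bases long. Of 282 genes over 20%, 253 had under 100 reads on average. The histone gene HIST1H4C led the longer genes at 20.1, 15.3 and 12.4 RPKM (CV 24.4%). Its message, like that of most replication histones, lacks a poly(A) tail.
Some classes shifted together between replicates. The mitochondrial share of RPKM was 9.84%, 11.3% and 11.2%, replicate 1 being the lowest for 13 of 13 genes where it was lowest for 35.3% of all genes at 1 RPKM or more. Ribosomal protein genes made 11.9%, 11.4% and 11.3%, with replicate 1 the highest for 56 of 77 members above 0 (72.7%) against 40.7% of all genes. Glycolysis genes were highest in replicate 1 in 13 of 21 cases. Secretory genes were so in 31 of 72, near that background. These counts were made after median-ratio scaling, replicate 3 had the fewest reads, and what moved the classes was not tested.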

How the data were processed

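RNA of OPM-1 cells was made into poly(A)-selected, directional libraries and sequenced on a NextSeq 500. Per the file headers, the deposited RPKM values come from reads aligned to GRCh38 with STAR and counted with featureCounts, beside the gene lengths used. The submitters' processing notes also name FastQC, Cuffnorm and DESeq2 without a role. Versions, the handling of reads with several matches and the strand setting of the counting are not given in the sources used here. Each value times its gene length gave whole reads for 100% of the values (tolerance 0.05 reads), from which the depth was taken.

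The 3 DMSO samples were used throughout, 1 group with no test. Levels are means of RPKM, ranks are by the mean, and a gene counts as expressed from 1 RPKM in every sample. Genes of the report are the 25 highest, the 5 with the largest and the 5 with the smallest coefficient of variation from 10 RPKM, the 10 highest lncRNAs, and members of 16 gene lists and 12 cell marker lists. Members and lists were chosen with earlier results of these data known. ITGB7, HBD, the chromosome 1 run, the MHC region and the genes named in it outside the lists were chosen after their values were seen. Of the 38478 symbols, 33243 matched RefSeq (GRCh38.p14), 23235 matched GENCODE 44 directly and 1202 through an older symbol. Gene coordinates and exon lengths are from GENCODE unless RefSeq is named, and 28 genes have a date number in place of a name. Simulated counts were used only to try a simpler form of the read recovery and the coefficient of variation, and the other steps were not tried so. Python 3.11.15, numpy 2.4.6, pandas 2.3.3, scipy 1.17.1 and matplotlib 3.10.9 were used. Alternatives were other minimum levels, TPM, reads in place of RPKM, median-ratio scaling, exon lengths in place of the deposited ones, gene subsets, pseudocounts of 0.01, 0.1 and 1 for the spread, and leaving out each replicate. Some members of the lists are counted but not reported here by name.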

Additional observations from a re-analysis of the deposited data

How the results depend on the processing

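No paired analysis was possible because the samples are 1 group and no result comes from a test. The number of genes at 1 RPKM or more was 9843 to 9869 when a replicate was left out, 10827 from 0.5 RPKM and 13037 from 0.1 RPKM. Genes listed at 0 numbered 18172 to 18540 with a replicate left out and 5003 among protein-coding genes. Among genes of any type, coding or not, with a deposited length under 1.5 times their exon length, 7235 were listed at 0. This last set was chosen after the data were seen. The share of the 100 highest genes was 32.9% to 33.2% with a replicate left out, 17.9% of the reads, 26.5% without mitochondrial genes and 32.3% without genes under 200 bases, also chosen afterwards. The mitochondrial share was 10.5% to 11.3% with a replicate left out and 3.78% of the reads. The median coefficient of variation was 3.15% to 4.75% with a replicate left out, 3.15% without replicate 1, 4.75% without replicate 2 and 3.36% without replicate 3, and was 12.1% with no minimum level. By construction these alternatives hold other sets of genes or samples, or drop the weight that RPKM gives short genes. The remaining alternatives kept the counts within 1.5 times and the share of the 100 highest genes within its SD. The median coefficient of variation, which has no SD of its own, was 3.76% to 4.53% under them. TPM multiplied all values by 2.65 to 2.66 without changing their order, and median-ratio scaling moved 1 of 463 list genes by more than its SD. GENCODE exon length in place of the deposited length, also chosen after the data were seen, moved 302 of 450 by more than their SD. It put HLA-DRA, HLA-DRB1 and PAGE1 above 1 RPKM on average and TNFRSF13B and CIITA below it. It also turned the order of some pairs, among them RUNX2 and RUNX3, CALR and TRAM1, and CRBN and CUL4B. Depth limits the genes under the floor of 3 reads, and what set the zeros of the MHC region was not tested.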

Other observations

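Cytosolic chaperones stood high in the ranking, and the 2 cytosolic HSP90 genes, which were in none of the lists, were picked after their values were seen. HSP90AB1, the constitutive form of HSP90, had 852, 856 and 854 RPKM in replicates 1 to 3, and its inducible relative HSP90AA1 had 640.2, 665 and 770.1 RPKM. The spread of the inducible form was wider, with replicate 3 the highest. HSPA8 was also highest in replicate 3, at 1823 RPKM, and lowest in replicate 2, at 1583 RPKM.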
